A study of Mus musculus with 38 samples.

Results

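The Period genes Per1, Per2 and Per3 and the cryptochrome genes Cry1 and Cry2 encode the repressor proteins of the mammalian circadian clock. These 5 genes were taken by name from a table of 54532 genes measured in mouse oligodendrocyte precursor cells (OPCs), the dividing glial cells that mature into myelinating oligodendrocytes. All 5 were among the 22798 genes that passed the filter on low counts. Each was described across 8 groups, which combined 2 genotypes of the clock activator BMAL1 with 4 times of day.

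In the clock of most mammalian cells, the transcription factors CLOCK and BMAL1 bind E-box sequences and switch on the Per and Cry genes. PER and CRY proteins then enter the nucleus together and shut down CLOCK and BMAL1, so that the activity rises and falls over a day. Other inputs reach the same genes: Per1 and Per2 respond quickly to cAMP and glucocorticoid signals, factors that bind D-box sequences act on Per genes, and the REV-ERB repressors act on Cry1.

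OPCs were isolated by immunopanning from the forebrain of mice at postnatal days 6 to 7, which depleted microglia and endothelium on lectin-coated plates before capture with an antibody to PDGFRA. The mice were kept in 12 h of light and 12 h of dark and were taken at zeitgeber time (ZT) 0, when lights came on, ZT6, ZT12, when lights went off, and ZT18. Animals of both groups carried floxed Bmal1 (Bmal1fl/fl): those labelled NG2::Cre- are called WT, and those labelled NG2::Cre+ are called KO. From ZT0 to ZT18 the WT groups held 4, 5, 6 and 4 libraries and the KO groups 4, 7, 4 and 4, and each library pooled 2 mice of both sexes. NG2::Cre drives the recombinase from the promoter of Cspg4, which is active in OPCs and also in pericytes. The recombination removes the DNA-binding part of BMAL1 before birth in all KO animals, and the labels describe a hypomorph. A group with NG2::Cre and intact Bmal1 was not analysed here, so the deletion and the recombinase cannot be told apart.

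The median library held 25.9 M counts, the smallest 19.4 M and the largest 39.01 M. Counts of Arntl, the symbol of Bmal1 in the table, scaled by effective library size to the unit CPM, stood at 19.3 to 33.2 in WT and 17.7 to 23.4 in KO libraries. A count over the whole gene includes reads from outside the deleted part and does not test the deletion. In 8 libraries ribosomal RNA genes took at most 0.263% of the counts, against at least 0.409% in the other 30. These low-rRNA libraries were 3 of the 6 WT libraries at ZT12, 1 KO library at ZT6 and all 4 KO libraries at ZT18, so at ZT18 low rRNA share and genotype cannot be told apart. KO ZT6 replicates 6 and 7 stood apart from the other 5 KO libraries of that time, with Per1 at 71.7 and 77.2 CPM against 157 to 289 CPM. The 12 OPC markers checked, Pdgfra and Cspg4 among them, summed to 12511 to 19038 CPM over the libraries. The 12 microglia markers summed to 3669 to 16589 CPM, and all of them were detected, although the panning depletes microglia. In bulk RNA, fewer cells of a type and less RNA per cell cannot be told apart. The p-values measure the spread between these pools of mice.

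The genes are shown first by their promoters, since the E-box is where CLOCK and BMAL1 act and the D-box is an input of its own. RefSeq windows of the 250 bases before an annotated transcription start (build GRCm38.p6) were found for 4 of the 5 members. Per2 had no entry. Capitals mark an E-box (CACGTG), an E-prime box (CACGTT, or AACGTG on the other strand) or a D-box (TTATGNAA), searched on both strands. The windows are chr11:69098699-69098948 (plus strand) for Per1, chr4:151044666-151044915 (minus strand) for Per3, chr10:85185055-85185304 (minus strand) for Cry1 and chr2:92434070-92434319 (minus strand) for Cry2. Each is printed 5′ to 3′ on its gene's strand.
Per1: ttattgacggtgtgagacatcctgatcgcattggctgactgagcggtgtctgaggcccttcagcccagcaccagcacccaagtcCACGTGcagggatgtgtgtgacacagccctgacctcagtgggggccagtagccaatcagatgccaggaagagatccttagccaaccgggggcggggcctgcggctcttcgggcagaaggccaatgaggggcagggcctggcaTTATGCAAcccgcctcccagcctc
Per3: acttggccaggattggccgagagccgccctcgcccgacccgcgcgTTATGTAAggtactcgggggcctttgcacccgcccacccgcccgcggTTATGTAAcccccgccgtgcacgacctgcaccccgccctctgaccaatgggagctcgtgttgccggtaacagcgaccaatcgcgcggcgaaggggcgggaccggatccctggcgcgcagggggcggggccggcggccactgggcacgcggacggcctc
Cry1: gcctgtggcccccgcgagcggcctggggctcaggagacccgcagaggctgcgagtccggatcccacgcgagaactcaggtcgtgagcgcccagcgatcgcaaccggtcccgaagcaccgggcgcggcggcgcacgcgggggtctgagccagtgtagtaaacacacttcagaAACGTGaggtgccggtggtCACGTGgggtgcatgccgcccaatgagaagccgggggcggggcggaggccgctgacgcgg
Cry2: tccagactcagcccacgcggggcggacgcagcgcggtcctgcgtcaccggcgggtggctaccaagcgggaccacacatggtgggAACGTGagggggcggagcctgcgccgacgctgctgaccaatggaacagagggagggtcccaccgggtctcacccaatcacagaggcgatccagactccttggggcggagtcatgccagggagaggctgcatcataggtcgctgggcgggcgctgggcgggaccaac

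The 4 windows held different elements. Per1 had an E-box beginning at position -166 and a D-box at -24, counted from the start site. Per3 had D-boxes at -205 and -158, both reading TTATGTAA, and these letters hold no E-box. Cry1 had an E-box at -60 next to an E-prime box at -79, and Cry2 had an E-prime box at -166. Of 32851 such windows over all genes, 6.02% held an E-box, 3.85% an E-prime box and 3.07% a D-box. A match of letters is a description and not a site of binding, and another Per1 start, at chr11:69099902-69100151, held none of these 3 motifs.

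Compared per length, as CPM divided by the exonic length in kilobases (RPKM), Per1 was the most abundant member at a mean of 21.9 RPKM over the 38 libraries, above 89.5% of the genes tested. Cry1 followed at 9.18 RPKM, then Per2 at 5.59, Cry2 at 5.54 and Per3 at 4.09 RPKM. Per2 and Cry2 lay close together, with ranges over libraries of 3.99 to 8.52 and 3.81 to 8.23 RPKM. The members also differed in how far the groups spread: the highest group mean was 5.15-fold the lowest for Per1, 2.05-fold for Per3, 1.72-fold for Cry1, 1.54-fold for Per2 and 1.22-fold for Cry2. Every member had at least 395 counts in each library.

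**Figure D1:**
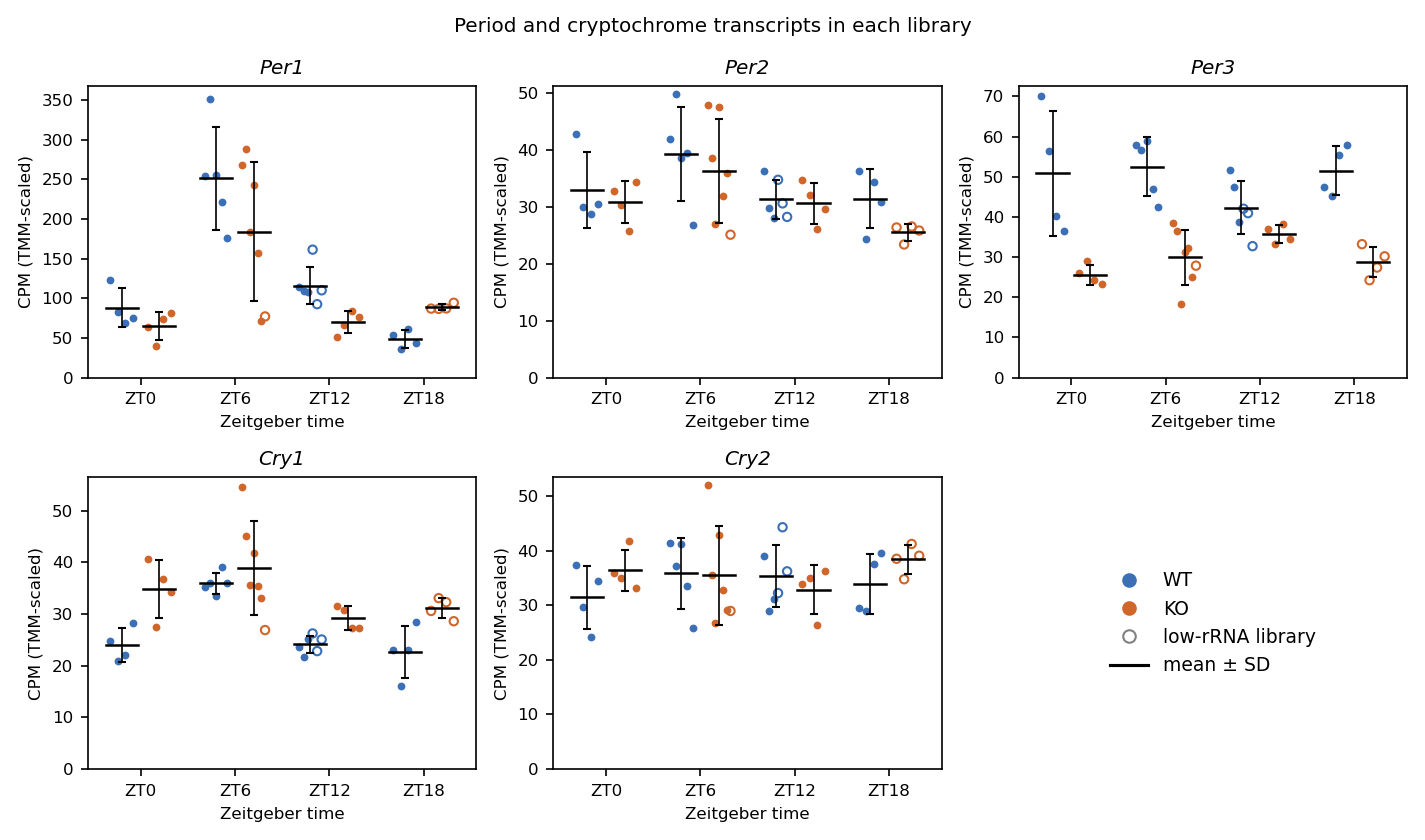
CPM (y axis) of the 5 genes in each of the 38 libraries, by zeitgeber time (x axis) and genotype, with low-rRNA libraries as open circles and bars for mean ± SD. Per1 peaks at ZT6 in WT. The KO group means of Per3 lie below those of WT at all 4 times, with libraries that overlap at ZT12 alone. The KO group means of Cry1 lie above those of WT at all 4 times.

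In edgeR, whose calls are meant where no other tool is named, genotype was called for Per3, which fell in KO, and for Cry1, which rose in KO, with the differences taken over all 4 times. That is 2 of 5 members, where the edgeR quasi-likelihood test called 0.0921% of all genes at an adjusted p under 0.05. At single times edgeR called Per3 at ZT0 (background 0.285% of genes), ZT6 (0.0132%) and ZT18 (2.14%), and DESeq2 also called Cry1 at ZT0 (adjusted p = 0.0339). All background shares are of edgeR calls, and those of DESeq2 and limma-voom are not given here. At ZT12, where 5% of all genes were called, no member was called by edgeR, DESeq2 or limma-voom. In edgeR 2 members had an unadjusted p under 0.05 there, as did 4576 of the 22798 genes tested. Whether the genotype difference depended on time was called for Per1 by edgeR, against 9.19% of all genes, and DESeq2 also called Per3 (adjusted p = 0.0395).

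Time of day was called by edgeR in WT for Per1 and Cry1 (background 4.91%) and in KO for Per1 (21.9%). DESeq2 called 3 members for time in KO, a count that the edgeR share does not measure. Over the alternatives other than leaving out each library, 2656 to 6457 of all genes were called for time in KO. A fitted 24 h cosine gave the same members as the edgeR time test: Per1 and Cry1 in WT (4.98%) and Per1 in KO (9.91%). Both tests use contrasts among the same group means, so the match is not separate support. The cosine did not differ between genotypes for any member in edgeR, where 6.28% of genes did. There 2 members, Per1 and Per3, had an unadjusted p under 0.05, as did 4789 of the 22798 genes tested. For the same difference DESeq2 and limma-voom each called 1 member. Between the middle of the light and the middle of the dark phase, ZT6 against ZT18, Per1 and Cry1 were called in WT (4.6%) and Per1 and Per2 in KO (5.03%). Between lights off and lights on, ZT12 against ZT0, no member was called in WT (0.00877%) or KO (3.27%) by any of the 3 tools. An unadjusted p under 0.05 was found for 0 members in WT and 1 in KO. Of the 22798 genes tested, 3305 in WT and 4436 in KO had one.

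**Figure D2:**
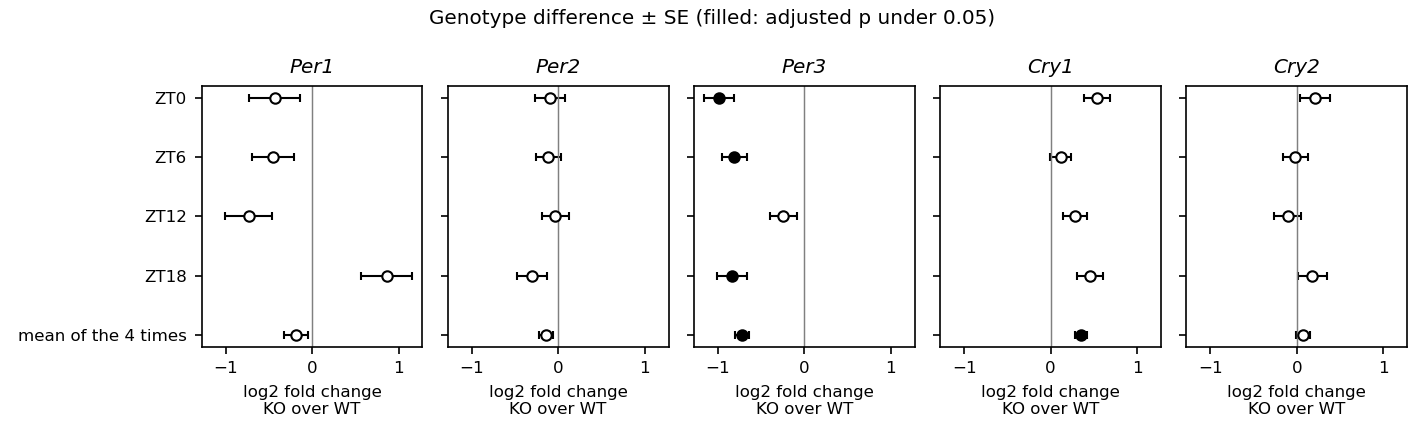
Log2 fold change of KO over WT (x axis) ± SE for each gene at each time and as the mean of the 4 times (y axis). Filled points have an adjusted p under 0.05: Per3 at ZT0, ZT6, ZT18 and over all times, and Cry1 over all times.

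Per1 encodes a PER protein that is also an acute target of cAMP and stress signals. The gene (ENSMUSG00000020893, chr11:69095217-69109960, plus strand, 5631 exonic bases) overlaps no other annotated gene. In WT, Per1 stood at 124, 83.2, 69.0 and 75.7 CPM at ZT0. At ZT6 it stood at 254, 352, 256, 221 and 176 CPM. At ZT12 the 6 libraries ran from 92.6 to 161 CPM with a median of 109.8, and at ZT18 the 4 libraries gave 53.6, 35.9, 61.7 and 44.0 CPM. All 5 ZT6 libraries lay above every other WT library, and all 4 ZT18 libraries lay below every other, while ZT0 and ZT12 overlapped. How many of all genes part in this way was not counted, here or for other groups below, so separation is a description. Per1 was 2.36 higher on the log2 scale at ZT6 than at ZT18 in WT (SE 0.299, adjusted p = 1.73e-06). The fitted cosine peaked at ZT6.64 with a peak 5.27-fold the trough (adjusted p = 4.31e-06), and 95.8% of the genes tested had a smaller amplitude.

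In KO, Per1 was again highest at ZT6 but its order at the other times differed. The KO libraries gave 64.4, 40.5, 73.8 and 81.4 CPM at ZT0. At ZT6 the 7 libraries ran from 71.7 to 289 CPM with a median of 184. At ZT12 they gave 51.8, 66.8, 84.5 and 76.3 CPM, and at ZT18 they gave 87.0, 86.7, 87.2 and 94.4 CPM. ZT18, the lowest time in WT, thus held the second highest KO mean, and its 4 libraries lay above all 4 KO libraries of ZT12. Per1 rose by 1.05 on the log2 scale from ZT18 to ZT6 in KO (SE 0.269, adjusted p = 0.0167), with a fitted peak 2.08-fold the trough at ZT6.38 (adjusted p = 0.0254). Without KO ZT6 replicates 6 and 7 the ZT6 to ZT18 difference was 1.36 (adjusted p = 5.87e-05) and the cosine adjusted p was 0.000218. These libraries were left out after their low Per1 had been seen, so the refit is not a fresh test of Per1. With low rRNA share as a term the difference was 0.74 (adjusted p = 0.491) and the cosine adjusted p was 0.424. The KO call from ZT18 to ZT6 was lost without KO ZT18 replicate 1, 2 or 3 (adjusted p = 0.0673, 0.0503 and 0.0617), and the KO cosine call without KO ZT6 replicate 1 or 2 or any KO ZT18 library (adjusted p between 0.0566 and 0.0749).

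At each time the genotypes compared as follows for Per1. WT and KO overlapped at ZT0 and ZT6, where KO was 0.43 and 0.45 lower on the log2 scale (SE 0.294 and 0.239, adjusted p = 0.453 and 0.974). At ZT12 every KO library lay below every WT library, with a log2 difference of -0.73 (SE 0.273, adjusted p = 0.112). At ZT18 every KO library lay above every WT library, with a difference of 0.86 (SE 0.296, adjusted p = 0.101). Single-time differences of Per1 did not pass the test over all genes, but the test of whether the difference varied with time did (adjusted p = 0.0277). The mean over the times, where opposite signs meet, was -0.19 (SE 0.137, adjusted p = 0.541).

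The call of the interaction for Per1 was lost under some alternatives. With low rRNA share as a term its adjusted p was 0.181, although the differences at ZT12 and ZT18 were then larger, at -0.92 and 1.197 (adjusted p = 0.176 and 0.525). Only WT ZT12 and KO ZT6 hold both kinds of library, so this term is estimated there and carried over to ZT18. It cannot part rRNA share from genotype at ZT18, for Per1 or any other gene. Without WT ZT18 replicate 2, WT ZT18 replicate 4, KO ZT12 replicate 1 or KO ZT18 replicate 4 the interaction adjusted p was 0.0813, 0.0672, 0.0617 and 0.0594. When KO ZT6 replicates 6 and 7 were excluded the adjusted p was 0.00307, the Per1 differences at ZT12 and ZT18 were called (adjusted p = 0.026 and 0.0261), and the difference at ZT6 was -0.14 (adjusted p = 0.9996). Both libraries stood apart by their low Per1, so stronger Per1 calls without them are not separate evidence. Among libraries of higher rRNA share the ZT12 difference was -0.66 (adjusted p = 0.453). At ZT18 no KO library of higher rRNA share exists, and summed markers of other cells differed as well. Summed choroid plexus markers ran from 168 to 437 CPM in KO against 18.9 to 107 CPM in WT at ZT18, with 5 of 5 detected. Summed oligodendrocyte markers ran from 687 to 878 against 433 to 485 CPM (10 of 10 detected), and red blood cell markers from 4639 to 7801 against 3086 to 3511 CPM (5 of 5 detected). Mural cell markers, which include those of pericytes, ran from 207 to 327 against 107 to 178 CPM (6 of 6 detected). None of these 4 sets overlapped between genotypes at ZT18. The OPC, microglia, endothelial, astrocyte and neuron markers, summed in the same way, did overlap at ZT18. At ZT0 the 4 sets overlapped, with choroid plexus markers at 44.8 to 314 CPM in KO against 22.4 to 86.2 in WT and mural markers at 155 to 462 against 85.5 to 224 CPM. At ZT12 summed oligodendrocyte markers ran from 407 to 454 CPM in KO against 476 to 695 CPM in WT, without overlap. The other sets overlapped at ZT12. The part of these cells in the values at ZT0, ZT12 and ZT18 was not tested.

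Per2 encodes the PER protein whose loss disrupts behavioural rhythms most directly in mice. The gene (ENSMUSG00000055866, chr1:91415982-91459324, minus strand, 5856 exonic bases) overlaps no other annotated gene. Its libraries ran from 24.4 to 49.9 CPM in WT and from 23.4 to 47.9 CPM in KO. The WT means were 33.0 ± 6.64 CPM at ZT0 (SD, n = 4), 39.3 ± 8.31 at ZT6 (n = 5), 31.3 ± 3.46 at ZT12 (n = 6) and 31.4 ± 5.24 at ZT18 (n = 4). The KO means were 30.8 ± 3.74 (n = 4), 36.3 ± 9.13 (n = 7), 30.6 ± 3.66 (n = 4) and 25.5 ± 1.46 CPM (n = 4) in the same order of times. ZT6 held the highest mean in both genotypes, yet in each genotype neighbouring times overlapped in their libraries. KO and WT overlapped at all 4 times, and the mean difference over times was -0.14 (SE 0.0809, adjusted p = 0.430).

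For Per2 the contrast of ZT6 with ZT18 was called in KO, where it rose by 0.51 on the log2 scale (SE 0.155, adjusted p = 0.0489). In WT the same contrast was 0.32 (SE 0.164, adjusted p = 0.361). The difference between the genotypes in the fitted cosine was not called (adjusted p = 0.868). The KO value lay at the threshold: it lost the call in 28 of 38 refits without 1 library, with an adjusted p of up to 0.137 and a log2 difference of 0.43 to 0.58. Libraries of every group were among those 28. With low rRNA share as a term it was 0.31 (adjusted p = 0.685), and all KO ZT18 libraries are low-rRNA.

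Per3 encodes the third PER protein, which is dispensable for the core rhythm in mice and is usually described as a clock output. Over the mean of the 4 times it was the member that differed most by genotype. The gene (ENSMUSG00000028957, chr4:151003652-151044665, minus strand, 9608 exonic bases) lies within the span of Camta1 on the same strand, with no exonic base in common. In WT, Per3 stood at 70.0, 56.4, 40.3 and 36.5 CPM at ZT0, and in KO at 26.0, 29.0, 24.2 and 23.4 CPM. At ZT6 the WT libraries gave 57.8, 56.6, 58.8, 47.0 and 42.3 CPM, and the 7 KO libraries ran from 18.4 to 38.5 CPM with a median of 31.2. No KO library reached the lowest WT library at either time. At ZT12 the 6 WT libraries ran from 32.7 to 51.6 CPM with a median of 41.5, and the KO libraries gave 36.9, 33.2, 38.2 and 34.4 CPM, so that the groups overlapped. At ZT18 they parted again, with 47.5, 45.1, 55.4 and 57.9 CPM in WT and 33.2, 24.2, 27.4 and 30.2 CPM in KO. Over all times 12 of the 19 KO libraries lay below every WT library. The share of all genes that part as far was not counted.

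Per3 fell in KO by 0.72 on the log2 scale over the 4 times (SE 0.0822, adjusted p = 1.09e-06). It fell by 0.99 at ZT0 (SE 0.176, adjusted p = 0.0121), by 0.81 at ZT6 (SE 0.143, adjusted p = 0.0136) and by 0.84 at ZT18 (SE 0.175, adjusted p = 0.0127). At ZT12 the difference was -0.24 (SE 0.160, adjusted p = 0.411). Whether the difference depended on time did not pass the edgeR test (adjusted p = 0.0929). It passed in DESeq2 (adjusted p = 0.0395) and without WT ZT0 replicate 4 (edgeR adjusted p = 0.0323). Neither genotype showed a called change of Per3 with time (adjusted p = 0.480 in WT and 0.169 in KO). Camta1, in whose span the gene lies, differed between genotypes by 0.10 over all times (SE 0.0662, adjusted p = 0.478).

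The fall of Per3 over all times was as large among the libraries of higher rRNA share (-0.72 over ZT0, ZT6 and ZT12, adjusted p = 0.000923) and without KO ZT6 replicates 6 and 7 (-0.70, adjusted p = 5.13e-06). It stayed called in all 38 refits without 1 library. The calls at single times were less steady, while the log2 differences kept their sign. At ZT0 the adjusted p was 0.097, 0.0578 and 0.081 without WT replicate 1, WT replicate 2 and KO replicate 3. At ZT6 it was 0.0966, 0.0843, 0.109 and 0.0637 without WT replicates 1, 2 and 3 and KO replicate 6, 0.111 without low-rRNA libraries and 0.279 without KO replicates 6 and 7. At ZT18 it was 0.0514 and 0.0505 without WT replicates 3 and 4, and 0.567 with low rRNA share as a term, where the difference was -0.64.

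Cry1 encodes a cryptochrome that represses CLOCK and BMAL1 strongly, and its own gene is a known target of REV-ERB repressors. The gene (ENSMUSG00000020038, chr10:85131700-85185064, minus strand, 3340 exonic bases) overlaps no other annotated gene. In WT, Cry1 stood at 24.7, 20.98, 22.0 and 28.2 CPM at ZT0 and at 35.2, 36.0, 33.4, 39.1 and 35.9 CPM at ZT6. At ZT12 the 6 libraries ran from 21.8 to 26.3 CPM with a median of 24.3, and at ZT18 the libraries gave 23.1, 16.1, 23.0 and 28.5 CPM. All 5 WT libraries of ZT6 thus lay above every other WT library, and the other 3 times overlapped each other. In WT, Cry1 rose by 0.66 on the log2 scale from ZT18 to ZT6 (SE 0.144, adjusted p = 0.00288), with a fitted peak at ZT6.04 that was 1.58-fold the trough (adjusted p = 0.0102). The cosine call was lost without WT ZT18 replicate 2, the lowest library (adjusted p = 0.0717), while the test of any difference among WT times kept its call in every refit (adjusted p = 0.00233 with all libraries).

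In KO, Cry1 gave 40.7, 27.5, 36.9 and 34.3 CPM at ZT0. At ZT6 the 7 libraries ran from 26.9 to 54.5 CPM with a median of 35.6. At ZT12 they gave 31.6, 30.9, 27.3 and 27.3 CPM, and at ZT18 they gave 30.6, 33.1, 32.3 and 28.6 CPM. Every KO library lay above every WT library at ZT12 and at ZT18, and the genotypes overlapped at ZT0 and ZT6. The edgeR test called neither ZT12 nor ZT18 (adjusted p = 0.243 and 0.0867), and the share of all genes that part likewise was not counted. Neighbouring times overlapped in KO, and the edgeR test for time was not called there with all libraries (adjusted p = 0.0666), while DESeq2 called it (adjusted p = 0.0455). In edgeR it was called without KO ZT6 replicates 6 and 7 (adjusted p = 0.00767), and also without WT ZT18 replicate 2, KO ZT6 replicate 6 or KO ZT6 replicate 7 alone (adjusted p = 0.0453, 0.0479 and 0.017).

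Cry1 rose in KO by 0.35 on the log2 scale over all times (SE 0.0704, adjusted p = 0.0275). The single-time differences were all positive, and 3 had an unadjusted p under 0.05 in edgeR, at ZT0, ZT12 and ZT18. Of the 22798 genes tested, 4191, 4576 and 4144 had one at those times. None of the Cry1 differences at single times was called by edgeR or limma-voom. DESeq2 called ZT0 (0.51, adjusted p = 0.0339), and so did edgeR without WT ZT0 replicate 4 (0.62, adjusted p = 0.0139). In edgeR the Cry1 differences were 0.54 at ZT0 (SE 0.151, adjusted p = 0.0647), 0.12 at ZT6 (SE 0.124, adjusted p = 0.974), 0.28 at ZT12 (SE 0.136, adjusted p = 0.243) and 0.46 at ZT18 (SE 0.150, adjusted p = 0.0867). Whether they differed between times was not called (adjusted p = 0.363). The call over all times was lost with another scaling (adjusted p = 0.0513 with relative log expression factors, 0.0702 with library size alone) and without the low-rRNA libraries (0.35 over ZT0, ZT6 and ZT12, adjusted p = 0.368). It was also lost in 8 refits without 1 library, which were WT ZT0 replicates 2 and 3, WT ZT6 replicate 3, WT ZT18 replicate 2, KO ZT0 replicates 1 and 3, KO ZT12 replicate 1 and KO ZT18 replicate 3, with adjusted p between 0.0523 and 0.0772 and log2 differences of 0.31 to 0.34.

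Cry2 encodes the other cryptochrome. The gene (ENSMUSG00000068742, chr2:92403646-92434043, minus strand, 6320 exonic bases) shares 295 exonic bases, 4.67% of its length, with D930015M05Rik on the opposite strand. No source used here gives the strand setting of the counting, and without strand the reads of that stretch cannot be told apart. Cry2 was the flattest member, with libraries from 24.1 to 44.3 CPM in WT and from 26.4 to 52.0 CPM in KO. The WT means were 31.4 ± 5.83 CPM at ZT0 (SD, n = 4), 35.8 ± 6.45 at ZT6 (n = 5), 35.3 ± 5.69 at ZT12 (n = 6) and 33.9 ± 5.42 at ZT18 (n = 4). The KO means were 36.4 ± 3.75 (n = 4), 35.5 ± 9.06 (n = 7), 32.9 ± 4.43 (n = 4) and 38.4 ± 2.69 CPM (n = 4). No comparison was called for Cry2, and genotype gave a mean difference of 0.07 (SE 0.0798, adjusted p = 0.729). Its fitted cosines had amplitudes of 0.09 on the log2 scale in each genotype, and 23.01% of the genes tested in WT and 18.9% in KO had smaller ones.

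Ratios within a library do not depend on the scaling between libraries. Per3 over Per2 averaged -0.19 on the log2 RPKM scale over the WT libraries and -0.79 over the KO libraries, so that Per3 was close to Per2 in WT and lower in KO. The genotype difference, averaged with equal weight of the times, was -0.58 (permutation test, 100000 resamples within time, p = 2e-05, adjusted p over the 4 ratios = 8e-05). Cry1 over Cry2 averaged 0.55 in WT and 0.86 in KO over libraries, and with equal weight of the times the difference was 0.27 (permutation test, adjusted p = 0.00154). Per3 over Per1 differed by -0.49 over the 4 times (permutation test, adjusted p = 0.0285). Without the low-rRNA libraries ZT18 has no KO library, and the ratios then cover ZT0, ZT6 and ZT12 alone. Over these times Per3 over Per1 differed by -0.19 (permutation test, adjusted p = 0.277). Its group means were lower in KO at ZT0, ZT6 and ZT18 (-2.41 against -0.67 in WT at ZT18) and higher at ZT12 (-1.72 against -2.22). Per1 over Per2 differed by -0.09 over the 4 times (permutation test, adjusted p = 0.623). Over ZT0, ZT6 and ZT12 without the low-rRNA libraries it differed by -0.46 (permutation test, adjusted p = 0.0106). Its group means were lower in KO at those times and higher at ZT18 (1.86 against 0.68 in WT).

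**Figure D3:**
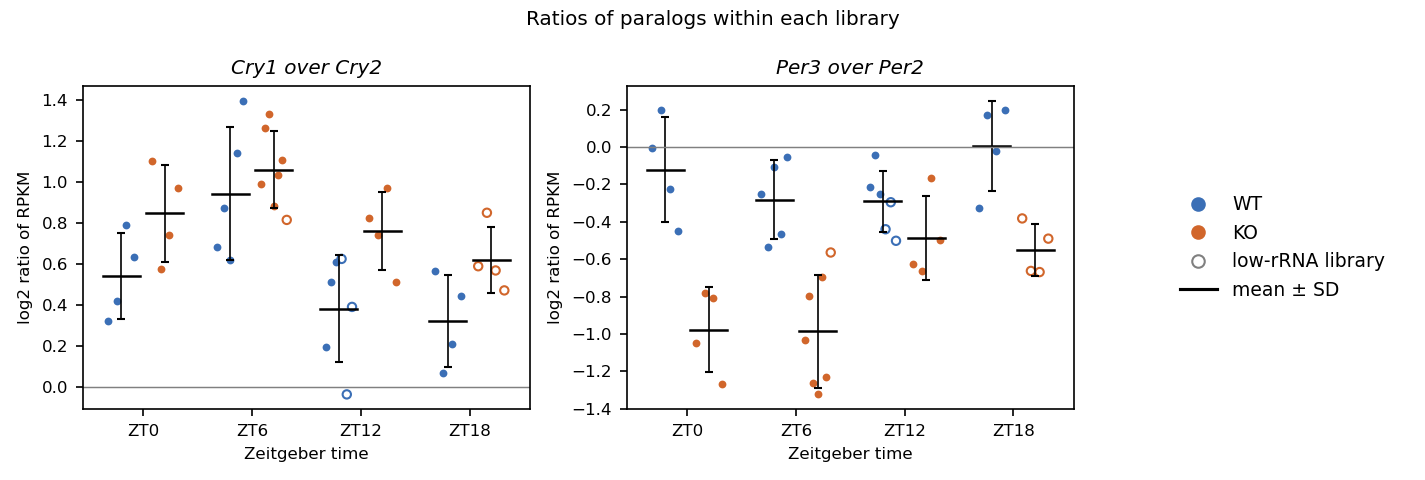
Log2 ratio of RPKM within each library (y axis) for Cry1 over Cry2 and Per3 over Per2, by zeitgeber time (x axis) and genotype, with low-rRNA libraries as open circles and bars for mean ± SD. Per3 over Per2 is lower in every KO group mean, with ZT0 and ZT6 KO libraries below all WT libraries, and Cry1 over Cry2 is higher in every KO group mean.

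Within groups, the members tended to vary together between libraries. Taken as deviations of log2 CPM from the group mean over 38 libraries, the 10 pairs had Pearson r from 0.17 to 0.64, and 8 had an adjusted p under 0.05 in a permutation test of libraries within groups. The closest pair was Per2 with Cry2 (r = 0.645, permutation adjusted p = 0.0057, Spearman rho = 0.537, permutation adjusted p = 0.0189), and r was 0.554 without the 2 libraries farthest from the Per2 median and 0.683 within the 30 libraries of higher rRNA share. Per2 with Per3 followed (r = 0.593, permutation adjusted p = 0.0057, Spearman rho = 0.486, permutation adjusted p = 0.0227, r = 0.594 without 2 libraries and 0.628 within higher rRNA share). Per3 with Cry1, the members that moved in opposite directions by genotype, had the lowest r (0.166, permutation adjusted p = 0.442, Spearman rho = 0.00777, permutation adjusted p = 0.969). Without the 2 libraries farthest from the median, 5 of the 8 called pairs lost the call: Per1 with Cry1, Per1 with Cry2, Per2 with Cry1, Per3 with Cry2 and Cry1 with Cry2. Their r was then 0.402, 0.335, 0.480, 0.413 and 0.372 in that order, with permutation adjusted p between 0.0623 and 0.102, so these calls, though not the sign of r, rest on the libraries left out. All 8 kept the call within the libraries of higher rRNA share. The values share library depth and scaling.

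Among 12217 genes with mean log2 CPM above 1, the patterns most like each member's over the 38 libraries were found by Pearson r of log2 CPM, as a description. Per1 had the closest likes, with the histone demethylase gene Kdm6b at 0.955, the RNase gene Zc3h12a at 0.954 and the NF-kB subunit gene Rel at 0.948. Per2 was most like Gsap at 0.833, Nktr at 0.821 and the chromatin remodeller gene Chd7 at 0.817. Per3 was most like the kinase gene Ulk3 at 0.795, Pnisr at 0.776 and Als2cl at 0.774. Cry1 was most like the acetyltransferase gene Naa50 at 0.737, the translation factor gene Eif1a at 0.732 and Arrdc3 at 0.731. Cry2 had the loosest likes, with Hnrnpdl at 0.709, Adamts7 at 0.673 and Kptn at 0.658. All these genes share libraries and depth with the members.

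The other clock genes were read as a list of 32, covering the activators, the REV-ERB and ROR receptors, the D-box factors, other E-box repressors, and kinases, turnover factors and partners of PER and CRY. Over all times 1 of the 32 was called, against 0.0921% of all genes: Nr1d2, the gene of REV-ERB beta, fell in KO by 0.55 on the log2 scale (SE 0.0735, adjusted p = 2.43e-05). The median difference over the 32 was -0.00605, against -0.0179 over all genes tested. Nr1d2 also fell at ZT0 by 0.67 (SE 0.157, adjusted p = 0.0483) and at ZT12 by 0.50 (SE 0.144, adjusted p = 0.0357), and without the low-rRNA libraries it fell over the remaining times by 0.59 (adjusted p = 0.00281), and differed at ZT0 by -0.67 and at ZT12 by -0.57, about as much as with all libraries, with adjusted p of 0.121 and 0.261. In CPM, Nr1d2 ran from 55.3 to 68.7 in WT and 32.4 to 45.5 in KO at ZT0, and the groups did not overlap, though how many of all genes part likewise was not counted.

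At ZT12, 1 of the 32 clock genes rose and 4 fell in KO, which is 15.6% called against 5% of all genes. Dbp, the gene of a D-box activator and a classical BMAL1 target, fell by 1.06 (SE 0.167, adjusted p = 0.000491), with 16.8 to 19.3 CPM in WT and 6.83 to 12.2 CPM in KO. Nr1d1, the gene of REV-ERB alpha, fell by 0.81 (SE 0.247, adjusted p = 0.0472), and Gsk3a, a kinase that phosphorylates clock proteins, fell by 0.38 (SE 0.0962, adjusted p = 0.0166). Clock itself rose by 0.40 (SE 0.12, adjusted p = 0.0450). At ZT18, 4 rose and 0 fell, 12.5% against 2.14% of all genes: the D-box repressor gene Nfil3 by 1.10 (SE 0.307, adjusted p = 0.0488), the E-box repressor gene Bhlhe41 by 0.97 (SE 0.263, adjusted p = 0.0427), and the kinase genes Gsk3a by 0.37 and Dyrk1a by 0.35 (SE 0.104 and 0.0818, adjusted p = 0.0495 and 0.0211). None of the ZT12 calls was made without the low-rRNA libraries, where Dbp had an adjusted p of 0.0733. With low rRNA share as a term Dbp fell by 1.04 at ZT12 (adjusted p = 0.0142), the calls of Clock, Nr1d1, Nr1d2 and Gsk3a at ZT12 were lost (adjusted p = 0.313, 0.107, 0.0714 and 0.243), and none of the ZT18 calls was made. Over all genes, the calls fell to as few as 1 at ZT12 and 2 at ZT18 among the alternatives. These losses thus need not be particular to the clock genes.

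**Figure D4:**
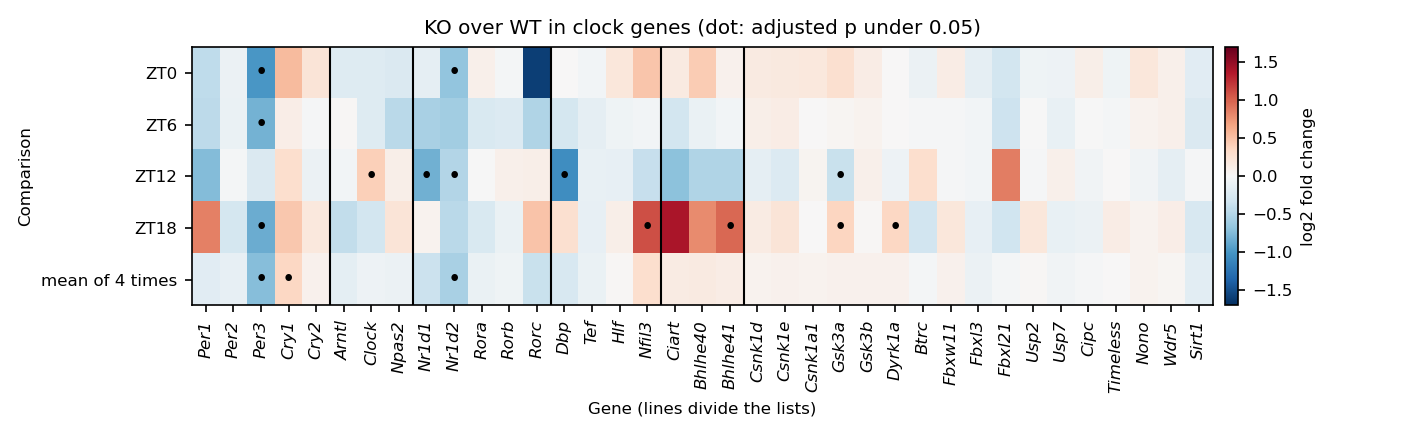
Log2 fold change of KO over WT (colour) for the 5 Period and cryptochrome genes and 32 other clock genes (x axis), at each time and as the mean of the 4 times (y axis), with a dot where the adjusted p is under 0.05. Over all times dots fall on Per3, Cry1 and Nr1d2.

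Per1 was also read beside 23 immediate early genes, which respond within minutes to signals and to cell handling. Nfil3 stands on this list and on the clock list and is counted in both. At ZT12, 8 of the 23 fell in KO and 0 rose, 34.8% against 5% of all genes called, with a median log2 difference of -0.77 against -0.00756 over all genes: among them Junb fell by 1.13 (SE 0.261, adjusted p = 0.00994) and Klf2 differed by -1.41 (SE 0.298, adjusted p = 0.00515). At ZT18, 8 rose and 0 fell, 34.8% against 2.14% of all genes, with a median of 0.70 against -0.00358 over all genes: Nr4a1 rose by 1.78 (SE 0.331, adjusted p = 0.00866) and Fosl2 by 1.66 (SE 0.387, adjusted p = 0.0212). The log2 difference at ZT18 was positive for 18 of the 23 and negative for 5. Egr1 averaged 1281 CPM in KO against 1859 in WT there, and Fos 929 against 1123 CPM. The summed levels of the list overlapped at ZT18, with 7016 to 10375 CPM in KO and 5708 to 9226 CPM in WT. Over all times the median of the 23 genes was -0.12. Without the low-rRNA libraries 0 of 23 were called at ZT12 and the median was -0.42, and with low rRNA share as a term 0 were called at ZT18 and the median was 0.04. Among the alternatives, calls over all genes fell to as few as 1 at ZT12 (from 1139) and 2 at ZT18 (from 488). The loss of calls thus need not be particular to this list. Of 14 tested glucocorticoid-responsive genes, 1 was called at ZT12, 7.14% against 5% of all genes: Cdkn1a fell by 0.85 (SE 0.228, adjusted p = 0.0251). With the low-rRNA libraries left out it differed by -0.45 (adjusted p = 0.580), and with the rRNA term by -0.59 (adjusted p = 0.285), and the list's median of -0.31 became -0.08 and -0.15. The genotype by time test called 2 of the 14, Cdkn1a and Ddit4, 14.3% against 9.19% of all genes.

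In WT, genes of the other lists also rose from ZT18 to ZT6, as Per1 and Cry1 did. Of the 23 immediate early genes 14 rose and 0 fell, of the 32 clock genes 7 rose and 0 fell, and of the 14 glucocorticoid-responsive genes 6 rose and 0 fell, against 4.6% of all genes called in either direction. In KO, 9 immediate early genes rose and 0 fell, 3 clock genes rose and 3 fell, and 2 glucocorticoid-responsive genes rose and 2 fell, against 5.03%. Summed immediate early gene levels in WT ran from 12696 to 15705 CPM at ZT6 and from 5708 to 9226 CPM at ZT18, without overlap. In KO they ran from 10996 to 20446 CPM at ZT6 and from 7016 to 10375 CPM at ZT18, also without overlap. The WT libraries of ZT12 ran from 6305 to 19961 CPM, across the range of ZT6.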

How the data were processed

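The authors deposited a table of raw read counts per gene for 38 libraries of polyA RNA, with gene coordinates and lengths. The submitters' processing notes name HISAT2 2.0.5, featureCounts 1.5.0-p3, fastp and the build GRCm38 (mm10). The annotation release and strand setting: not given in the sources used here. Coordinates of 53499 of 54532 genes matched GENCODE M21, all 5 members among them.

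Sample titles gave the group and replicate number of each library. Every one of 76 pairs of libraries within groups differed beyond sampling noise (chi-square over its degrees of freedom at least 10.4), and each library was 1 replicate. Genes passing filterByExpr by group (22798, holding 99.95% of counts) were tested with edgeR 4.0.16 (R 4.3.3): TMM scaling, an 8-group quasi-likelihood model, Benjamini-Hochberg adjustment over all genes, threshold 0.05. CPM (counts divided by effective library size in M) and RPKM were computed here, with a prior count of 2 for log2 CPM. The cosine used the contrasts ZT0 minus ZT12 and ZT6 minus ZT18. The script was tested on simulated data.

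Alternatives were other scalings, no filter, DESeq2 1.42.0, limma-voom (limma 3.58.1), a replicate block, removal of the 8 low-rRNA libraries (at most 0.3% of counts) or a term for them, and each library left out. The exclusion of KO ZT6 replicates 6 and 7 and the list counts under alternatives were added after seeing the data. Those replicates had been noticed by their Per1 and Nr1d1 values, so Per1 results without them are not a fresh test. The members, lists and tests were chosen with earlier results of these data known. Named were the members, the 3 genes most like each, the list genes called in KO against WT, and, chosen after their values were seen, Arntl, Camta1 and Ddit4.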

Additional observations from a re-analysis of the deposited data

Results flagged for a closer look

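Per1 in KO ZT18 replicate 4 stood at 94.42 CPM, apart from the other 3 libraries of its group, which lay between 86.7 and 87.24 CPM. Per2 in WT ZT0 replicate 1 stood at 42.88 CPM, apart from the other 3 at 28.71 to 30.41 CPM. These were 2 of 40 gene-by-group sets looked at, and chance alone marks about 1 set in 20. The Per1 difference between KO and WT varied with time (edgeR interaction test, adjusted p = 0.02771), with KO lower at ZT0, ZT6 and ZT12 and higher at ZT18.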

How the results depend on the processing

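Of 75 member results, 44 kept their direction and side of the threshold under every alternative, and none of the 43 reversed values among 3495 was called in either fit. The fall of Per3 over all times kept its call throughout. Without the 8 low-rRNA libraries ZT18 has no KO library and no value. Replicate numbers did not pair the libraries: over 17 pairs r ran from -0.0908 to 0.24, with 2 above 0.1.

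Members called over all times (2) became 1 with relative log expression scaling, library size alone or no low-rRNA libraries, and 1 to 2 leaving out each library. At ZT0 (1) they became 2 with DESeq2 and 0 to 2 leaving out each library. At ZT6 (1) they became 0 without low-rRNA libraries or without KO ZT6 replicates 6 and 7, and 0 to 1 leaving out each library. Without those replicates the members called became 1 at ZT12 (0), 2 at ZT18 (1), 3 for time in KO (1) and 3 for the cosine in KO (1). Per1, by whose values the replicates stood apart, is among the members called in each of these. With low rRNA share as a term the members called became 0 at ZT18, for genotype by time (1), for the cosine in KO and for ZT6 against ZT18 in KO (2). DESeq2 gave 2 for genotype by time, 3 for time in KO and 2 for the cosine in KO. Limma-voom gave 0 for the cosine in KO and 1 for ZT6 against ZT18 in KO. Library size alone gave 1 for that contrast and 1 for the cosine in WT (2). The cosine difference (0) became 1 with no filter, DESeq2 or limma-voom. Leaving out each library gave 0 to 1 at ZT18 and for the cosine difference, 0 to 2 for genotype by time and ZT6 against ZT18 in KO, 1 to 3 for time in KO, 1 to 2 for the cosine in WT and 0 to 3 for the cosine in KO.

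With the replicate block, members called became 2 at ZT0, 0 at ZT6, 1 at ZT12, 3 at ZT18, 3 for time in KO, 3 for the cosine in KO and 1 for the cosine difference. The block turned Cry2 at ZT6 to 0.040 and Per2 for ZT12 against ZT0 in WT to 0.025.

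None of the following log2 values that changed sign was called. Cry2 at ZT6 (-0.02) was 0.028 without low-rRNA libraries, 0.086 without KO ZT6 replicates 6 and 7 and -0.13 to 0.042 leaving out each library. Per2 at ZT12 (-0.03) was 0.011 with library size alone and -0.093 to 0.035 leaving out each library, and at ZT0 (-0.10) it was -0.16 to 0.050. For ZT12 against ZT0 in WT, Per2 (-0.07) was 0.036 with the rRNA term and -0.13 to 0.080 leaving out each library. There Cry1 (0.01) was -0.033 with relative log expression scaling or DESeq2, -0.029 with no low-rRNA libraries, -0.045 with library size alone and -0.053 to 0.095 leaving out each library. In KO, Per2 (-0.01) was 0.00394, 0.00474 and 0.00408 with relative log expression, library size and DESeq2 scaling and -0.083 to 0.066 leaving out each library, and Per1 (0.10) was -0.054 to 0.25. For ZT6 against ZT18 in WT, library size alone gave -0.060 for Per3 (0.03) and -0.00945 for Cry2 (0.08), and leaving out each library gave -0.040 to 0.096 for Per3. In KO, Per3 (0.06) was -0.12 with the rRNA term and -0.017 to 0.15 leaving out each library. Of the ratios, Per1 over Per2 was 0.00308 without KO ZT6 replicates 6 and 7. Without low-rRNA libraries Per3 over Per1 was -0.19 (permutation adjusted p = 0.277) and Per1 over Per2 -0.46 (permutation adjusted p = 0.0106). These values average ZT0, ZT6 and ZT12 alone, while the main ratios also include ZT18. With all libraries, Per1 over Per2 at ZT18 averaged 1.86 in KO against 0.68 in WT. Per3 over Per1 averaged -2.41 against -0.67 there. The loss of ZT18 is thus part of the change in these ratios. Beyond this loss, the cause of the changes listed here was not tested.

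Over the alternatives other than leaving out each library, genes called ran from 5 to 244 over all times (21), 4 to 1018 at ZT0 (65), 1 to 4 at ZT6 (3), 1 to 1646 at ZT12 (1139), 2 to 1211 at ZT18 (488) and 43 to 3166 for genotype by time (2096). For time they ran from 724 to 1778 in WT (1120) and 2656 to 6457 in KO (5001), and for the cosine from 665 to 1740 in WT (1136), 1131 to 3629 in KO (2260) and 225 to 2150 for its difference (1432). For ZT12 against ZT0 they ran from 0 to 271 in WT (2) and 298 to 1368 in KO (745), and for ZT6 against ZT18 in KO from 310 to 2706 (1146).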
